A study of Bos taurus with 8 samples.

Results

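The endoderm and hypoblast markers described here were 9 genes, GATA4, GATA6, SOX17, SOX7, FOXA1, FOXA2, HNF4A, CXCR4 and AFP, of the 32637 genes that had values in the count matrix of bovine embryonic stem cells (bESCs). They were chosen by name, as genes known from the hypoblast or the definitive endoderm. The rule used no measured value, but earlier results of these data were known when they were chosen. All 9 had a row in the matrix, 8 had at least 1 read, and AFP had none.

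The hypoblast, or primitive endoderm, is the cell layer that separates from the pluripotent epiblast inside the blastocyst and goes on to line the yolk sac. Definitive endoderm forms later, from epiblast cells that leave the primitive streak under Nodal and Activin signals, and gives rise to gut, liver and lung. GATA6 and GATA4 are zinc finger transcription factors of the hypoblast, SOX17 and SOX7 are HMG-box factors that follow them, FOXA1 and FOXA2 are forkhead factors that open chromatin at endoderm genes, HNF4A is a nuclear receptor of visceral endoderm and liver, CXCR4 is a chemokine receptor used as a surface marker of definitive endoderm, and AFP encodes the secreted alpha-fetoprotein of yolk sac and fetal liver. Embryonic stem cells kept in a pluripotent state are cultured so that this program stays low, and the markers are read as a measure of cells that leave that state.

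RNA of 4 lines of bESCs with the XX genotype, derived from blastocysts and named A, C, D and E, was sequenced from each of 2 cultures, first on a feeder layer of irradiated mouse embryonic fibroblasts (MEF) and then after transition to feeder-free culture on vitronectin. All cultures were kept in 5% O2, so that the comparison was of culture matrix within low oxygen. The MEF libraries came from passages 15 to 17 and the feeder-free libraries from passages 20 to 22, so passage and matrix cannot be told apart. The sample titles carry the name NBFRA for both groups, whereas the methods describe Activin A, a ligand of the Nodal pathway, as an addition to NBFR medium for feeder-free culture, so whether the groups also differed in Activin A is not settled by these sources. NBFR medium holds FGF2 and IWR-1, an inhibitor of WNT signalling. Each line gave 1 library per group, so the lines are the replicates.

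Counts on genes summed to 44268717 to 54296425 per MEF library and to 49671478 to 102351560 per feeder-free library, the largest being that of line D. Levels are given as CPM, reads of a gene relative to the library total after TMM scaling. The 95% intervals of single CPM values are exact Poisson intervals that cover counting error only and treat counts as independent. Reads were paired-end and most low counts of the markers were even, and whether both reads of a pair were counted is not known. If they were, the intervals are too narrow. The pluripotency genes that define the label were abundant in all 8 libraries, POU5F1 at 1720 to 2340 CPM, SOX2 at 333 to 476 CPM and NANOG at 195 to 284 CPM. CDX2, a transcription factor of trophoblast, and MSGN1, of presomitic mesoderm, had a count of 0 in all 8 libraries, while other genes of the trophoblast and mesoderm lists were detected, KRT7 at 19.0 to 113 CPM, GATA3 at 0 to 3.16 CPM, BMP4 at 5.29 to 7.39 CPM and EOMES at 0.770 to 9.53 CPM. Levels are compared between libraries and not between genes, since no transcript lengths were used.

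None of the 9 endoderm and hypoblast markers differed between MEF and feeder-free culture at the thresholds of the study, at least 1.5-fold with an adjusted P-value (Benjamini-Hochberg over all genes tested) under 0.05. In what follows, a gene is called when it passes both, and SE is the standard error of its log2 change. Counts were high enough for the edgeR test in 4 of them (FOXA2, HNF4A, FOXA1 and CXCR4), and 0 of these 4 were called, against 1.73 percent of all 15744 genes tested. At an unadjusted P-value under 0.05, 0 of the 4 passed, against 21.6 percent of all genes, and FOXA2 lay at 0.0501. When the lines were paired in the fit (replicate block), 0 of the 4 were called, against 10.05 percent of all genes, and FOXA2 alone had an unadjusted P-value under 0.05, as did 32.2 percent of all genes. The MEF and feeder-free CPM overlapped in all of the 4 (they did not in 14.6 percent of all genes tested), and with so few markers these counts do not set the markers apart from other genes. The CPM of the other 5 overlapped as well. These 5 markers had 0 to 36 counts per library and fell below the filter on low counts. In bulk RNA, fewer cells that express a marker and less RNA in each of them cannot be told apart.

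**Figure D1:**
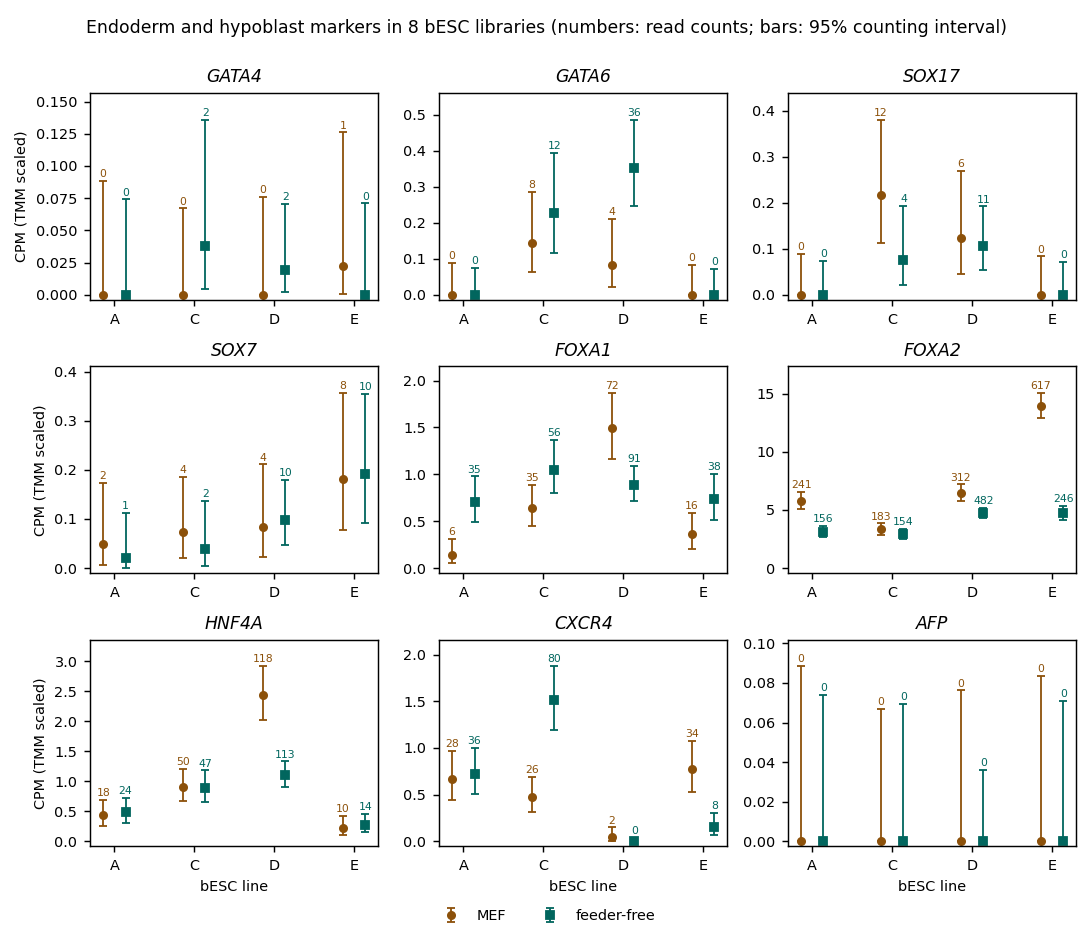
Level of each of the 9 endoderm and hypoblast markers in CPM (linear vertical axis, a separate scale for each gene) in the 4 bESC lines, with circles for MEF and squares for feeder-free culture. Bars are two-sided 95% counting intervals, which at a count of 0 end above the limit of 3 counts used in the text, and the printed numbers are read counts. FOXA2 reaches 617 counts in the MEF library of line E, GATA6 and SOX17 have counts only in lines C and D, and AFP is at 0 in all 8 libraries.

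GATA6, which directs inner cell mass cells to the hypoblast, lies on chromosome 24, between 34161968 and 34194339 in ARS-UCD2.0, the build of all positions given here. On MEF it had 0 counts in line A, 8 in line C, 4 in line D and 0 in line E. In feeder-free culture it had 0 counts in line A, 12 in line C, 36 in line D and 0 in line E. The same lines, C and D, therefore held all 60 GATA6 counts in both conditions. The level in line D was 0.0826 CPM (95% interval 0.0225 to 0.211) on MEF and 0.352 CPM (0.246 to 0.487) in feeder-free culture. These intervals did not overlap, whereas those of line C did, at 0.145 CPM (0.0627 to 0.286) and 0.226 CPM (0.117 to 0.395). All GATA6 counts were even, so if both reads of a pair were counted, the intervals are too narrow and the separation in line D is uncertain. Over the 4 lines, GATA6 had 0.0570 ± 0.0706 CPM on MEF and 0.144 ± 0.175 CPM in feeder-free culture (SD, n = 4 each), a difference within the spread between lines (exact permutation test, two-sided, p = 0.543, where 0.0286 is the lowest that 4 against 4 can reach). This test leaves the pairing by line out of account. Within lines, GATA6 was higher in feeder-free culture in both lines with counts, and the paired (replicate block) fit without the filter gave a log2 change of 1.27 (SE 1.52, edgeR adjusted p = 0.733).

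GATA4, the close relative of GATA6 that acts beside it in extra-embryonic endoderm, lies on chromosome 8 from 7642415 to 7721284. It had 5 counts in all, 1 in the MEF library of line E and 2 each in the feeder-free libraries of lines C and D, and 0 in the other 5 libraries. No library rose above 3 counts, so no difference could be seen at this depth (exact permutation test, two-sided, p = 0.714, n = 4 per condition).

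SOX17, required for the definitive endoderm and switched on in the hypoblast after GATA6, lies on chromosome 14 from 22229926 to 22231726. Its counts in lines C and D were 12 and 6 on MEF, and 4 and 11 in feeder-free culture. Lines A and E had 0 counts in both conditions. SOX17 was thus detected in the same 4 libraries as GATA6. In line C, SOX17 was at 0.218 CPM (0.113 to 0.381) on MEF and 0.0753 CPM (0.0205 to 0.193) in feeder-free culture, while GATA6 was at 0.145 and 0.226 CPM. Over the 4 lines, the mean was 0.0854 ± 0.106 CPM on MEF and 0.0457 ± 0.0544 CPM in feeder-free culture (SD, n = 4 each, exact permutation test, two-sided, p = 0.543). SOX17 was lower in feeder-free culture in both lines with counts, with a log2 change of -0.73 (SE 1.96, edgeR adjusted p = 0.877) in the paired fit without the filter. GATA4 and SOX7 had adjusted p of 0.871 and 0.932 in that edgeR fit.

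SOX7, a SOX factor of primitive endoderm that endothelial cells also use, lies on chromosome 8 from 8558698 to 8565619. On MEF it had 2, 4, 4 and 8 counts in lines A, C, D and E, and in feeder-free culture 1, 2, 10 and 10. Line E was highest in both conditions, at 0.181 CPM (0.0782 to 0.357) on MEF and 0.192 CPM (0.0923 to 0.354) in feeder-free culture. In contrast to GATA6 and SOX17, SOX7 was not confined to lines C and D. Its means were 0.0961 ± 0.0586 CPM and 0.0870 ± 0.0778 CPM (SD, n = 4 each), a difference within the spread between lines by the same exact permutation test (p = 0.83). That test leaves the pairing by line out of account. SOX7 was higher in feeder-free culture in 2 lines and lower in 2, with a log2 change of -0.31 (SE 1.33, edgeR adjusted p = 0.932) in the paired fit without the filter.

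SOX17, SOX7 and CXCR4 are also known from endothelium, so markers of endothelial and blood cells were examined beside them. PECAM1, a defining adhesion molecule of endothelium, had 0 to 0.113 CPM, the endothelial cadherin gene CDH5 had 0 to 0.527 CPM and PTPRC, a leukocyte marker, had 0 to 0.226 CPM. Over the 14 genes of the list, 3 of which are markers described here, summed CPM were 12.2 to 24.3 on MEF and 20.0 to 28.8 in feeder-free culture, and 8 of the 14 had enough counts to be tested. KDR, the VEGF receptor gene, was called higher in feeder-free culture, with a log2 change of 1.84 (SE 0.35, edgeR adjusted p = 0.0403), and was higher in 4 of 4 lines. TEK and ETV2 were also higher in 4 of 4 lines (log2 change 1.43 and 0.82) and TAL1 and GATA2 lower in 4 of 4 (-0.71 and -1.43), none of them called in the unpaired fit, and GATA2 was called lower with the replicate block. The part of such cells in the counts of the 3 markers was not tested.

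FOXA2, a pioneer factor of anterior primitive streak, definitive endoderm and node, was the only marker that had more than 150 counts in every library. It lies on chromosome 13 from 41478502 to 41546053. On MEF, FOXA2 had 241 counts (5.79 CPM) in line A, 183 (3.32 CPM) in line C, 312 (6.44 CPM) in line D and 617 (13.98 CPM) in line E. In feeder-free culture it had 156 counts (3.13 CPM) in line A, 154 (2.90 CPM) in line C, 482 (4.71 CPM) in line D and 246 (4.73 CPM) in line E. The MEF library of line E stood above all others, at 13.98 CPM (12.9 to 15.1), and the MEF library of line C lay below the feeder-free libraries of lines D and E, so the groups overlapped.

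FOXA2 was lower in feeder-free culture in 4 of 4 lines, a pattern that 20.7 percent of all genes tested shared. The log2 ratios of feeder-free over MEF were -0.88 in line A, -0.19 in line C, -0.45 in line D and -1.56 in line E. The mean went from 7.38 ± 4.60 CPM on MEF to 3.87 ± 0.990 CPM in feeder-free culture (SD, n = 4 each). The log2 change was -0.93 (SE 0.41, 95% interval -1.86 to 0.00), with an adjusted p of 0.232 from edgeR's quasi-likelihood test, and FOXA2 was not called. In the paired (replicate block) fit it was -0.78 (SE 0.25, 95% interval -1.34 to -0.22), with an adjusted p of 0.0631 from the same test. Without the filter on low counts, a setting chosen after the data were seen, the paired fit called FOXA2 lower (adjusted p = 0.0290), in a fit that called 8.55 percent of 23262 genes. Without the MEF library of line E the unpaired log2 change was -0.42.

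FOXA1, which shares its DNA-binding domain and many targets with FOXA2 and acts later in gut and lung, lies on chromosome 21 from 47778970 to 47782753. On MEF it had 6 counts (0.144 CPM) in line A, 35 (0.636 CPM) in line C, 72 (1.49 CPM) in line D and 16 (0.362 CPM) in line E. In feeder-free culture it had 35 counts (0.702 CPM) in line A, 56 (1.05 CPM) in line C, 91 (0.889 CPM) in line D and 38 (0.731 CPM) in line E. The 4 feeder-free libraries lay inside the range of the MEF libraries, which spread from the lowest value, in line A, to the highest, in line D. FOXA1 had a higher level in feeder-free culture in 3 of 4 lines (log2 ratio 2.04 in line A, 0.70 in line C and 0.95 in line E) and a lower one in line D, at -0.72. Its log2 change was 0.36 (SE 0.61, 95% interval -1.02 to 1.73, edgeR adjusted p = 0.796), an interval that takes in a fall by 1.02 as well as a rise by 1.73 on the log2 scale.

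FOXA3, the remaining FOXA gene, is known from gut and liver and was listed with the family partners. It had 13 to 18 CPM on MEF and 13.7 to 22.1 CPM in feeder-free culture. Its log2 change was 0.15 (SE 0.18, edgeR adjusted p = 0.700), higher in 2 of 4 lines.

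HNF4A, a nuclear receptor of visceral endoderm and a driver of hepatocyte genes, lies on chromosome 13 from 72825641 to 72855373. On MEF it had 18 counts (0.432 CPM) in line A, 50 (0.908 CPM) in line C, 118 (2.44 CPM) in line D and 10 (0.227 CPM) in line E. In feeder-free culture it had 24 counts (0.482 CPM) in line A, 47 (0.885 CPM) in line C, 113 (1.10 CPM) in line D and 14 (0.269 CPM) in line E. The order of the lines was D, C, A and E in both conditions. Between conditions, the intervals of line D did not overlap, at 2.44 CPM (2.02 to 2.92) and 1.10 CPM (0.910 to 1.33), and those of lines A, C and E did. The log2 change was -0.54 (SE 0.73, 95% interval -2.18 to 1.10, edgeR adjusted p = 0.730). Without the MEF library of line D it turned to 0.39.

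HNF4G, the paralog of HNF4A, had 0.984 ± 0.404 CPM on MEF and 2.01 ± 0.446 CPM in feeder-free culture (SD, n = 4 each), higher in 4 of 4 lines, and was not called (edgeR adjusted p = 0.184). The groups did not overlap, as in 14.6 percent of all genes tested. HNF4G was not called in the paired fit either (edgeR adjusted p = 0.0883). The paired fit without the filter, a setting chosen after the data were seen, called it (adjusted p = 0.0390), as it did 8.55 percent of 23262 genes.

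CXCR4, the receptor for the chemokine CXCL12, lies on chromosome 2 from 61250149 to 61253862. On MEF it had 28 counts (0.672 CPM) in line A, 26 (0.472 CPM) in line C, 2 (0.0413 CPM) in line D and 34 (0.770 CPM) in line E. In feeder-free culture it had 36 counts (0.722 CPM) in line A, 80 (1.51 CPM) in line C, 0 in line D and 8 (0.154 CPM) in line E. Line D was lowest in both conditions, and its count of 0 came from the deepest library, where it allows a level of up to 0.0293 CPM (3 counts). The other lines did not move together, since the log2 ratio was 0.10 in line A, 1.603 in line C and -2.09 in line E. The log2 change was 0.27 with a SE of 1.21 and a 95% interval of -2.44 to 2.99 (edgeR adjusted p = 0.932). It turned to -0.32 in the paired (replicate block) fit (adjusted p = 0.819), so no direction can be given.

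CXCL12, the ligand of CXCR4, had 15.7 to 34.6 CPM on MEF and 16.8 to 30.3 CPM in feeder-free culture, with a log2 change of -0.01 (SE 0.28, edgeR adjusted p = 0.993). ACKR3, the gene of the other CXCL12 receptor, had 4.79 ± 2.05 CPM on MEF and 3.02 ± 1.07 CPM in feeder-free culture (SD, n = 4 each, edgeR adjusted p = 0.367).

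AFP, on chromosome 6 from 88511182 to 88532729, had 0 counts in all 8 libraries. Over the 446020238 counts of the 8 libraries, a count of 0 allows a level of up to 0.00672 CPM (3 counts of the total), and in single libraries up to 0.0293 to 0.0720 CPM. ALB, the albumin gene beside AFP in the genome and a marker of liver, was detected in each library, at 0.215 to 1.56 CPM.

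**Figure D2:**
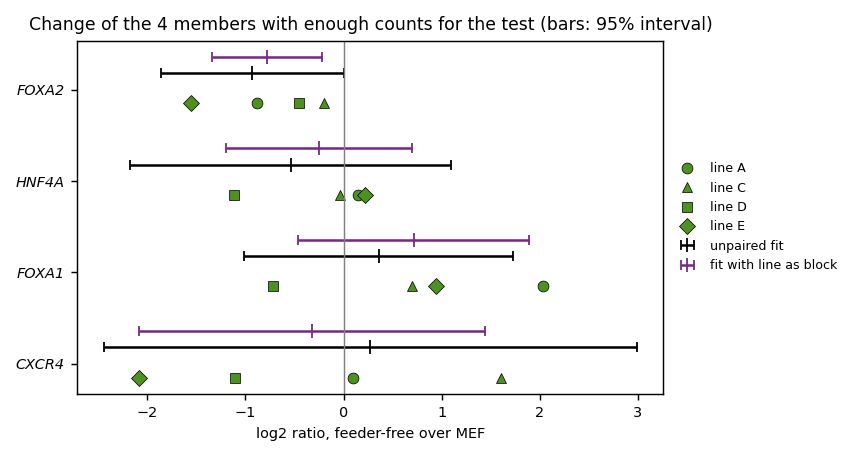
Log2 ratio of feeder-free over MEF (horizontal axis, 0 is no difference) for the 4 markers with enough counts for the edgeR test. Green symbols are the log2 CPM differences of the 4 lines (prior count 2), the black bar is the unpaired estimate and the purple bar the estimate with line as a block, each with its 95% interval. Intervals are worked back from the F statistic of the same edgeR fit. All 4 lines lie below 0 for FOXA2 alone, and the unpaired interval of every marker reaches 0.00 or beyond.

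In the 7 markers with more than 5 counts in all, line accounted for more of the spread than condition, with 3 terms for line in the fit and 1 for condition. The part of the spread of log2 CPM over the 8 libraries that line accounted for was 91.9 percent for HNF4A, 83.6 percent for CXCR4, 92.8 percent for SOX17, 90.3 percent for SOX7 and 89.3 percent for GATA6, as a description of these libraries. That share was smaller for FOXA2, at 54.4 percent, and FOXA1, at 52.2 percent. Condition accounted for 31.4 percent in FOXA2, 17.3 percent in FOXA1 and 0.958 to 4.18 percent in the other 5. With 3 terms against 1, line would on average take the larger share even where neither had an effect. These shares were not computed for all genes, so they do not set the markers apart from other genes.

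The difference between lines was tested with edgeR's F test of the line terms, with each line seen once on MEF and once in feeder-free culture. HNF4A differed between lines (adjusted p = 0.0481), 1 of the 4 markers tested, against 11.8 percent of all genes. FOXA2 had an adjusted p of 0.0807, CXCR4 of 0.0684 and FOXA1 of 0.348 in this test. HNF4A lost the call whichever of the 8 libraries was left out, and FOXA2 and CXCR4 gained it without the feeder-free library of line E. Without the filter on low counts, where 14.5 percent of 23262 genes were called, FOXA2, HNF4A and CXCR4 were called, with adjusted p of 0.0120, 0.00774 and 0.00296, and in the same edgeR fit GATA6 had an adjusted p of 0.0876, SOX17 of 0.361, SOX7 of 0.950 and GATA4 of 0.973.

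Other listed genes with a difference between lines were called in the same test, 22 of 84, or 26.2 percent (11.8 percent of all genes). Among genes of primitive and visceral endoderm these were LRP2 and CUBN, which encode endocytic receptors of the yolk sac epithelium, and LAMB1 and LAMC1, which encode basement membrane laminin chains. LRP2 was higher in lines C and D than in A and E, at 8.46 and 8.30 CPM against 3.60 and 3.58 CPM on MEF, and at 5.95 and 4.47 CPM against 3.09 and 2.75 CPM in feeder-free culture. LAMB1 showed the same division, with 158 and 189 CPM in C and D against 115 and 110 CPM on MEF, and 205 and 204 CPM against 116 and 112 CPM in feeder-free culture. CUBN was highest in line D in both conditions, at 19.3 and 23.8 CPM. GATA3, a trophoblast factor related to the GATA genes above, was also higher in C and D, at 1.63 and 1.03 CPM on MEF and 3.16 and 1.97 CPM in feeder-free culture, against 0 to 0.430 CPM in lines A and E. The loci of GATA3, LAMB1 and LAMC1 overlap those of other genes, and since no source gives the strand setting of the counting, their counts are less certain. No annotated gene overlaps any of the 9 markers.

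NODAL, the ligand upstream of definitive endoderm, differed between lines in both conditions, at 72.3, 32.6, 127 and 19.8 CPM on MEF and 60.6, 32.2, 119 and 26.5 CPM in feeder-free culture in lines A, C, D and E (adjusted p = 0.000238 in the line test). Of the lines in which GATA6 and SOX17 were counted, D had the highest NODAL and C had less than line A, in both conditions. LEFTY2, the Nodal antagonist and target, was highest in line A and lowest in line E in both conditions, at 4050 and 1910 CPM on MEF and 2460 and 1090 CPM in feeder-free culture.

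Of the 9 markers, 4 (GATA6, SOX17, FOXA1 and HNF4A) had higher CPM in lines C and D than in lines A and E in both conditions, as did 5 of the 15 fibroblast genes (COL1A2, COL5A2, POSTN, PDGFRB and PRRX1) and 15.4 percent of all genes tested. GATA6 and SOX17 fell below the filter on low counts and are not among the genes tested. The share of the markers and that of all genes tested therefore cover unlike sets. The pattern was chosen after the values were seen, and COL1A2 overlaps another annotated gene. PDGFRB was at 18.9 and 16.9 CPM on MEF against 7.54 and 12.0 CPM in lines A and E. Of the 13 fibroblast genes tested, 5 were called between lines (COL1A2, COL3A1, POSTN, PDGFRB and TWIST1), against 11.8 percent of all genes. The summed CPM of the 15 fibroblast genes were 416, 528, 502 and 484 on MEF and 207, 850, 1538 and 388 in feeder-free culture in lines A, C, D and E. TWIST2 had 0 counts in the 4 feeder-free libraries and 0.0453 to 0.661 CPM on MEF, and FAP was at 0 in 6 of the 8 libraries. The part of fibroblast transcripts in the levels of GATA6, SOX17, FOXA1 and HNF4A was not tested. Whether the counts on MEF used here already had the reads of a pure MEF sample removed is not known, and how well mouse reads of these genes align to the bovine genome was not analysed here.

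**Figure D3:**
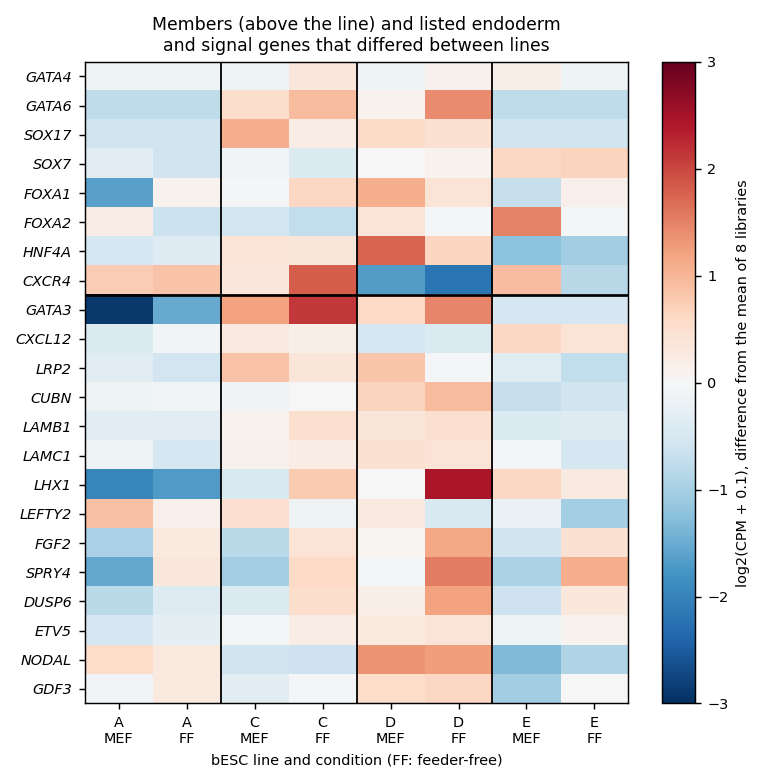
Difference of log2(CPM + 0.1) from the mean of the 8 libraries, as colour (red above, blue below the mean), with libraries in columns ordered by line (FF is feeder-free). The rows above the thick line are the 8 endoderm and hypoblast markers with counts, and those below are listed endoderm and signal genes called between lines. GATA6, SOX17 and HNF4A are above their means in lines C and D in both conditions, as are LRP2, LAMB1 and LAMC1 except where a cell is near white, and CXCR4 is lowest in line D.

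To place the markers among their pathways, 123 other listed genes with a row in the matrix were examined, of which 84 were tested and 8 had no counts in any library. Between conditions, 6 of the 84 were called in the unpaired fit, or 7.14 percent (1.73 percent of all genes), all higher in feeder-free culture: APOA1, ETV4, FST, KDR, PTGS2 and SPRY4. In the paired (replicate block) fit 22 were called, or 26.2 percent (10.05 percent of all genes), 13 higher and 9 lower. None of the 84 was called in the unpaired fit when 1 of 7 libraries was left out (0 in each case), and 10 were called without the remaining one, the feeder-free library of line A. The lists were drawn up with earlier results of these data known.

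Genes of primitive and visceral endoderm had estimates on both sides of 0. Of 15 tested, including HNF4A, 9 estimates lay above 0 and 6 below, and the median log2 change was 0.03, against a median of 0.01 over all genes tested. FST, the gene of follistatin, which binds Activin, was the only one called, against 1.73 percent of all genes. FST rose from 37.4, 37.6, 27.6 and 20.7 CPM on MEF to 63.1, 65.9, 66.8 and 52.9 CPM in feeder-free culture in lines A, C, D and E, with a log2 change of 1.01 (SE 0.20, edgeR adjusted p = 0.0411). The 4 feeder-free values lay above the 4 MEF values.

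Among the genes of definitive and anterior endoderm, 10 were tested, including FOXA2 and CXCR4, with a median log2 change of 0.15. In the unpaired fit 0 were called, against 1.73 percent of all genes. At an unadjusted P-value under 0.05, 4 passed, against 21.6 percent of all genes. With the replicate block 3 were called, against 10.05 percent of all genes. EOMES, the T-box factor upstream of definitive endoderm, was higher in feeder-free culture in 4 of 4 lines, at 1.70, 3.41, 6.69 and 0.770 CPM on MEF and 6.26, 6.57, 9.53 and 8.62 CPM in feeder-free culture. Its log2 change in the paired fit was 1.61 (edgeR adjusted p = 0.0307). PRDM1, a repressor active in endoderm and germ cell precursors, was lower in 4 of 4 lines, at -1.15 (adjusted p = 0.00779), and LEFTY2 at -0.72 (adjusted p = 0.00227). EOMES and FOXA2, both genes of the route to definitive endoderm, thus had estimates of opposite sign. PRDM1, like FOXA2, was highest in the MEF library of line E, at 16.3 CPM against 8.09 to 9.99 CPM in the other MEF libraries.

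Genes for plasma proteins secreted by yolk sac and liver, the products expected of differentiated visceral endoderm or hepatocytes, had few or no counts for the most part. Of the 18 listed, AFP included, 4 had no counts in any library (AFP, APOB, SERPINA1 and FGA), and 5 had enough counts to be tested. Of the 5, 3 had estimates above 0 and 2 below, with a median log2 change of 0.05. At an unadjusted P-value under 0.05, 2 passed, against 21.6 percent of all genes. The unpaired fit called 1 of the 5, against 1.73 percent of all genes. APOA1 was called higher in feeder-free culture, from 59.2, 53.7, 44.8 and 97.6 CPM on MEF to 125, 186, 234 and 193 CPM in lines A, C, D and E, a log2 change of 1.53 (SE 0.27, edgeR adjusted p = 0.0349). APOA1 overlaps APOA4 in the annotation. RBP4, the retinol carrier gene, had 201 ± 25.3 CPM on MEF and 237 ± 10.9 CPM in feeder-free culture (SD, n = 4 each) and was not called (edgeR adjusted p = 0.290). The estimates below 0 were those of FGB (-1.24, edgeR adjusted p = 0.129) and ALB (-1.075, edgeR adjusted p = 0.360), and APOM was at 0.05. APOA1 and RBP4 were expressed in all 8 libraries while TTR, another secreted protein of the same tissues, had 2 counts in all.

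Of the 18 tested genes for signals upstream of hypoblast and endoderm, the unpaired fit called 2 higher and 0 lower, against 1.73 percent of all genes. At an unadjusted P-value under 0.05, 10 passed, against 21.6 percent of all genes. With the replicate block 4 were called higher and 4 lower, against 10.05 percent of all genes. SPRY4 and ETV4, targets of FGF and ERK signalling, rose, with log2 changes of 1.75 (SE 0.36, edgeR adjusted p = 0.0471) and 0.73 (SE 0.14, adjusted p = 0.0399), each in 4 of 4 lines. With the replicate block FGF2 and DUSP6 were also called higher, at log2 changes of 1.16 and 0.84, and FGF2 overlaps NUDT6. ACVR2A and ACVR2B, receptors for Activin and Nodal, and SMAD3, their signal transducer, were called lower in that fit, at -0.65, -0.74 and -0.62, as was LEFTY2. Other genes of these pathways were not called in either fit, among them FGFR1 (0.07), FGFR2 (-0.41), SPRY2 (-0.01), NODAL (-0.08) and GDF3 (0.36, higher in 4 of 4 lines). Over the list, 9 estimates were positive and 9 negative (median 0.03).

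**Figure D4:**
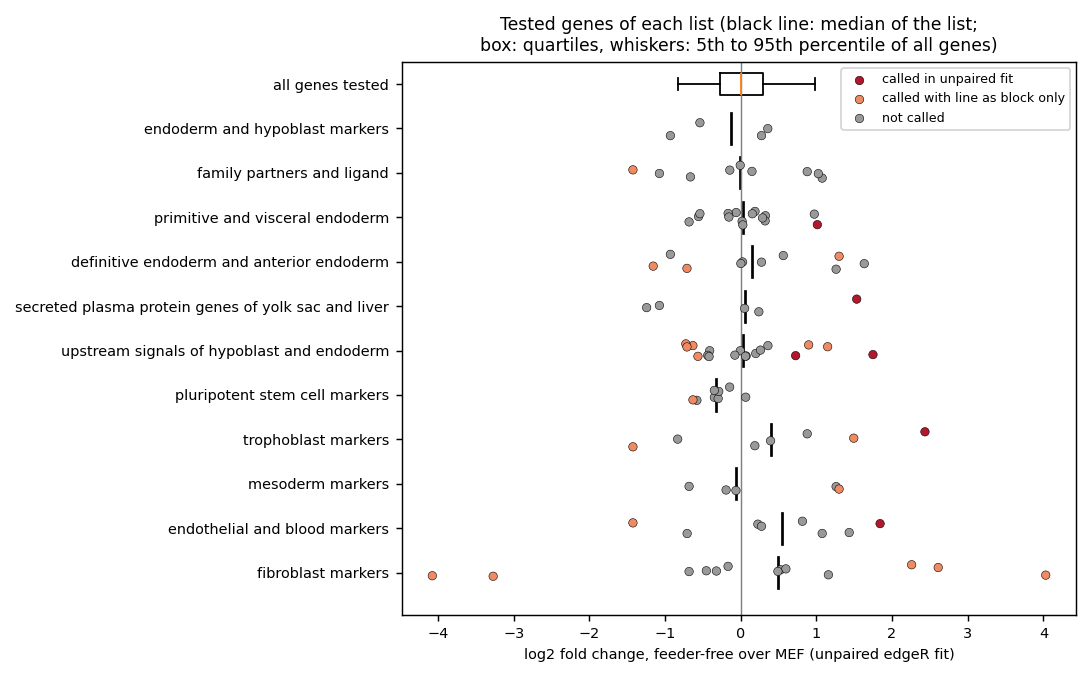
Unpaired log2 change of feeder-free over MEF (horizontal axis) for the tested genes of each list, with the 4 tested endoderm and hypoblast markers in the second row. Points are genes coloured by call, short black lines are list medians, and the box at the top gives the quartiles of all 15744 genes tested, with whiskers from the 5th to the 95th percentile. The 4 markers have a median of -0.13 and none is called, while genes called in the unpaired fit occur in 5 of the other lists.

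Among the partners of the marker families, 0 of 9 genes tested were called in the unpaired fit (2 at an unadjusted P-value under 0.05), and GATA2, a factor of trophoblast and blood, was called lower with the replicate block, at -1.45 (edgeR adjusted p = 0.0447). Over all genes tested, the unpaired fit called 1.73 percent and the replicate block 10.05 percent, and 21.6 percent had an unpaired unadjusted P-value under 0.05. Markers of other cell types that the cultures could hold were counted in the same way. Of 7 trophoblast genes tested, PTGS2 was called higher (log2 change 2.43, SE 0.43, edgeR adjusted p = 0.0373), and KRT7 joined it with the replicate block, at 1.46. CDX2 and IFNT2, known from bovine trophoblast, had no counts. The authors had removed alignments of low mapping quality before counting, and the effect of this on IFNT2 was not tested. Of 5 mesoderm genes tested, 0 were called in the unpaired fit (1 at an unadjusted P-value under 0.05), and TBXT had 0 to 0.231 CPM. Of 13 fibroblast genes, 0 were called in the unpaired fit and 5 at an unadjusted P-value under 0.05. With the replicate block ACTA2, COL3A1 and POSTN were called higher, at 2.95, 2.53 and 2.77, and COL1A2 and PRRX1 lower, at -4.35 and -4.15. OTX2, among 8 pluripotency genes tested, was called lower with the block, at -0.66. Without the block 0 of the 8 were called, with 6 at an unadjusted P-value under 0.05, against 21.6 percent of all genes. Of the 8 unpaired estimates, 7 lay below 0 and 1 above, with a median log2 change of -0.32. SALL4 had an edgeR adjusted p of 0.0426 at a log2 change of -0.58, just short of 1.5-fold.

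For the 3 markers with the highest mean CPM, the genes tested whose log2 CPM was most like theirs over the 8 libraries were picked by Pearson's r (Spearman's coefficient is given beside it), as a description without a test, since the libraries share lines and conditions. FOXA2 was followed most closely by SNX30 (r = 0.953, Spearman 0.857), RNF212B (r = 0.952, Spearman 0.857) and LRRC32 (r = 0.948, Spearman 0.881). All 3 were highest in the MEF library of line E, where RNF212B had 8.56 CPM against 0.542 to 1.78 CPM in the others. HNF4A was followed by MGAT3 (r = 0.987, Spearman 0.976), NEO1 (r = 0.983, Spearman 0.905) and LOC132344373 (r = 0.981, Spearman 0.952). NEO1 had its highest value in the MEF library of line D, 160 CPM, and its lowest in the feeder-free library of line E, 98.3 CPM. FOXA1 was followed by LOC132345947 (r = 0.969, Spearman 0.929), SGSM1 (r = 0.964, Spearman 1.00) and WNT3 (r = 0.959, Spearman 0.929), of which LOC132345947 and WNT3 had under 0.5 CPM in every library.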

How the data were processed

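Libraries of 4 bESC lines were made from total RNA (paired-end, 150 base reads), 1 on MEF and 1 feeder-free per line. The authors deposited raw counts per gene: STAR alignments to ARS-UCD2.0 of reads trimmed by Trimmomatic were filtered with Picard and samtools and counted by featureCounts (Subread 1.6.2 in the submitters' processing notes), with strand not given in the sources used here. They also describe removing reads of a pure MEF sample, which was not analysed here, and whether the counts on MEF used here had this done is not known. The methods name RNeasy kits and the sample records Trizol.

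Of 32640 genes listed, 3 without values were left out, and 0 columns were unused. The counts of no 2 libraries of a condition agreed within sampling noise (smallest chi-square per degree of freedom 40.8). Genes were tested with edgeR 4.0.16 in R 4.3.3 (glmQLFit, glmQLFTest; filterByExpr, TMM) on condition, with Benjamini-Hochberg adjustment over 15744 genes. Log2 CPM used a prior count of 2. Markers below the filter were compared by a two-sided exact permutation test of CPM over 70 arrangements, without pairing by line. Differences between lines were tested in the fit with condition and line.

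The lines are the same in both conditions, so line pairs the libraries. Deviations from the condition means correlated at 0.582, 0.557, 0.664 and 0.421 for the libraries of lines A, C, D and E, and at -0.523 to 0.249 between lines. All records give the same batch. Symbols were matched to RefSeq genes of ARS-UCD2.0 (30268 with coordinates, all 9 markers included).

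The markers and gene lists were chosen with earlier results of these data known. Named genes were the 9 markers, listed genes called in the unpaired or the paired fit, POU5F1, SOX2 and NANOG, and the 3 genes most like each of 3 markers. Other genes, such as those called between lines, partners of the markers, and cell type markers at or near 0, were named after their values had been seen. Alternatives tried were edgeR's RLE factors, unscaled totals, other filters, DESeq2 1.42.0, limma-voom 3.58.1, the replicate block, no fold change threshold and each library left out. The unpaired, paired and line fits of edgeR, with the filter and TMM, were first tested on simulated data. The alternative settings and the permutation test were not. Counting intervals (95%, exact Poisson) and limits of detection (3 counts) cover counting error only and treat counts as independent.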

Additional observations from a re-analysis of the deposited data

Results flagged for a closer look

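Among 16 groups of 4 libraries examined for the markers, 1 held a library far from the other 3, where about 1 in 20 such groups is given by chance. It was the MEF library of line E for GATA4, at 0.0227 CPM against 0 in the other MEF libraries, which is a single read. The chance rate does not apply to this group, since a library with the only read of its group is always flagged.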

How the results depend on the processing

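None of the 9 markers was called between conditions in 16 of 17 alternatives. The exception was the replicate block without the filter on low counts, added after the data were seen, with 1 (FOXA2, log2 change -0.755), and the cause was not tested. Pairing by line (the replicate block) changed no other call of a marker. FOXA2 stayed below 0 in all 16 of its alternatives, from -1.17 without the MEF library of line C to -0.42 without that of line E, and FOXA1 above 0 in all 15, from 0.026 to 1.13. HNF4A reversed only among the fits without 1 library, -0.875 to 0.389. CXCR4 reversed with limma-voom (-1.48), the replicate block (-0.318), the block without the filter (-0.357) and among the fits without 1 library (-0.775 to 0.705). The markers called between lines were 3 in place of 1 without the filter and 0 to 2 without 1 library, FOXA2 and CXCR4 without the feeder-free library of line E. The listed genes called, 6, were 16 with DESeq2, 22 with the replicate block, 28 with the block and no filter, and 0 to 10 without 1 library, 10 without feeder-free line A and 0 without any other, fits with fewer libraries. The cause of the other differences was not tested. With at least 10 counts in every library only FOXA2 and HNF4A could be tested. On the log2 CPM scale GATA4, GATA6, SOX17 and SOX7 kept their direction. Depth limits the 5 markers below the filter, which had 36 counts at most in a library.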
